A study of Mus musculus with 28 samples.

Results

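The 10 genes described here encode carriers, or partner subunits of carriers, that move amino acids across the cells of the renal proximal tubule. They are Slc3a1, Slc3a2, Slc7a7, Slc7a8, Slc7a9, Slc7a12, Slc7a13, Slc6a19, Slc6a20b and Slc1a1, taken by symbol from the 56748 genes of a count table of mouse kidney RNA, and all 10 were found and tested. The table covers 28 whole-kidney libraries of polyadenylated RNA from a study of aquaporin-3 lysine acetylation. The mice were males or females of 3 genotypes, either wild type (WT) or carrying an aquaporin-3 that mimics acetylation (Q) or deacetylation (R). Each of the 6 groups of sex and genotype had 5 libraries, except R females with 3. All animals were untreated, and kidneys were decapsulated and frozen in the early part of the light phase. The labels give no strain, age or littermate information, and do not say that each library came from its own animal, so p-values measure the spread between these libraries, which may in part be technical.

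The proximal tubule reclaims nearly all filtered amino acids. Carriers in the apical brush border take them up from the tubular fluid, and others in the basolateral membrane release them toward the blood. Several of these carriers are heterodimers, in which a light chain of the Slc7 family does the transport and a heavy chain of the Slc3 family brings it to the membrane. Slc3a1 is the heavy chain of the apical cystine and dibasic amino acid system, with Slc7a9 as light chain, and loss of either causes cystinuria. Slc7a13 is another light chain known to pair with Slc3a1, in the late straight part of the tubule. Slc3a2 is the heavy chain of the basolateral exchangers formed with Slc7a7, which exports dibasic amino acids, and with Slc7a8, which exchanges neutral ones. Slc6a19 is the sodium-coupled apical carrier of neutral amino acids that is defective in Hartnup disorder, and it depends on collectrin (Cltrn) to reach the membrane. Slc6a20b is a member of the Slc6 family with a close copy, Slc6a20a. Slc1a1 is the apical carrier of glutamate and aspartate, and Slc7a12 is a rodent Slc7 carrier of small neutral amino acids.

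Total counts ran from 14825417 to 21403804 per library. Male Q replicate 4 and female Q replicate 5 stood apart from the other libraries on the second principal component, at -82.0 and -43.3. Mitochondrially encoded genes held 7.74% and 3.94% of their counts, against 9.56 to 12.1% in the other 26 libraries. In female WT replicate 2, Xist was nearly absent (0.515 CPM, where the remaining 12 females had 214 to 435), and Y-linked RNA was also low (0.468 CPM, where males had 121 to 164). Markers of the proximal tubule were abundant in every library, with a list of 10 genes that includes Slc34a1, Slc27a2 and Gatm summing to 15950 to 23150 CPM. In whole tissue, fewer cells of a type and less RNA per cell cannot be told apart.

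Levels are given in CPM, edgeR's scaling of counts to library size with TMM factors, and as CPM per kilobase of exon where genes are compared with each other. Per kilobase, the order of the 10 genes differed between the sexes mainly through Slc7a13 and Slc7a12. In the 15 male libraries Slc7a13 was highest at 533 ± 52.5 CPM per kb (SD), followed by Slc3a1 at 220 ± 30.4. Slc3a2 (63.1 ± 9.02 CPM per kb), Slc7a7 (51.2 ± 8.47), Slc6a19 (48.3 ± 11.2) and Slc7a9 (41.1 ± 7.71) came next, and neighbours among these 4 were not separated by more than their SDs together. Slc6a20b (29.7 ± 1.54) and Slc7a8 (26 ± 3.53) were likewise not separated by more than their SDs together. Slc1a1 was at 17.9 ± 1.05, and Slc7a12 was lowest at 4.07 ± 4.03 CPM per kb. In the 13 female libraries Slc3a1 was highest at 238 ± 28.4 CPM per kb and Slc7a12 second at 117 ± 30.6. Slc3a2 followed at 85.5 ± 5.35, then Slc7a7 at 65.9 ± 8.45, Slc7a9 at 62.5 ± 6.78 and Slc6a19 at 58.7 ± 10.2, the last 3 within each other's spread. Slc7a8 was at 41.8 ± 6.40 CPM per kb, Slc6a20b at 24.1 ± 1.98 and Slc1a1 at 15.6 ± 1.49, and Slc7a13 was lowest at 2.54 ± 0.629. Exon bases overlapped genes on the opposite strand over 26.5% in Slc3a1, 21.1% in Slc6a20b and 31.9% in Slc1a1. The counting used no strand, so the per-kilobase levels of these genes are uncertain.

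**Figure D1:**
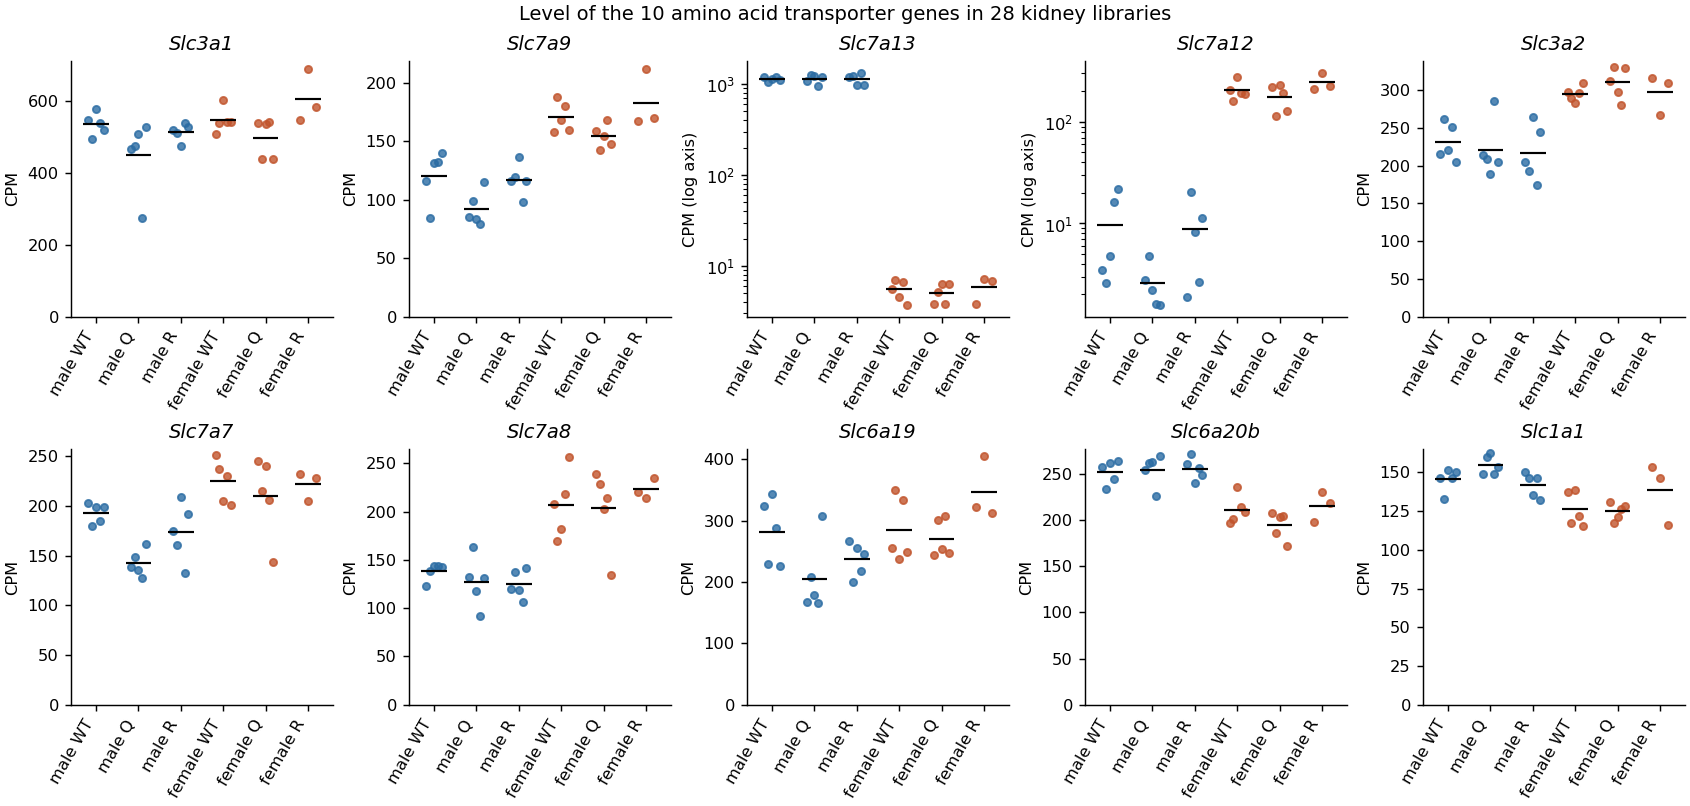
Level of each gene (CPM, y axis; log axis for Slc7a13 and Slc7a12) in the 6 groups of sex and genotype (x axis). Points are libraries, blue for male and orange for female, and bars are group means. Slc7a13 is at 957.8 CPM or more in each male library and at 7.18 CPM or less in each female library, and Slc7a12 is at 21.7 CPM or less in males and at 113 CPM or more in females.

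The first comparison asks how female and male kidneys differed in these genes, over the mean of the 3 genotypes. Of the 10 genes, 6 were higher in females (Slc7a12, Slc7a8, Slc7a9, Slc3a2, Slc7a7 and Slc6a19) and 3 were lower (Slc7a13, Slc6a20b and Slc1a1). Slc3a1 was not called. A gene was called at an adjusted p under 0.05, by edgeR's quasi-likelihood test with Benjamini-Hochberg adjustment over 17573 genes. Sex differences were frequent in this tissue, with 21.3% of all tested genes called higher in females and 18.9% called lower. The median log2 fold change was 0.35 over the 10 genes and 0.04 over all tested genes. The 10 genes were chosen with earlier results of these data known, so these counts and medians describe them and carry no test. The same 9 genes were called without male Q replicate 4 and female Q replicate 5, and without any single library in turn, female WT replicate 2 included.

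Slc7a13 had the largest difference of the 10. Its counts were 1210, 1049, 1125, 1188 and 1106 CPM in male WT, 1082, 1247, 1236, 957.8 and 1210 CPM in male Q, and 1194, 1219, 976.7, 1333 and 984.0 CPM in male R. Female WT libraries had 5.60, 6.93, 4.58, 6.73 and 3.71 CPM, female Q 3.83, 5.17, 6.32, 3.85 and 6.27 CPM, and female R 3.81, 7.18 and 6.78 CPM. The male and female ranges were separated by more than the whole male spread, and the male libraries varied little, with a highest to lowest ratio of 1.39. The log2 fold change of females against males was -7.70 (SE 0.141, adjusted p = 7.57e-28), which is 208-fold lower in females. The female level was low but not at the limit of the counts, at 74 to 148 counts per library.

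Slc7a12 went the other way. Female WT libraries had 206.9, 159.8, 280.0, 193.4 and 188.1 CPM, female Q 220.1, 113.4, 231.6, 194.0 and 127.2 CPM, and female R 209.2, 305.2 and 226.6 CPM. Male WT libraries had 3.47, 2.60, 4.79, 16.2 and 21.7 CPM, male Q 2.75, 4.74, 2.23, 1.62 and 1.57 CPM, and male R 1.89, 20.5, 8.30, 2.65 and 11.2 CPM. No male library reached the lowest female one. The log2 fold change was 5.10 (SE 0.347, adjusted p = 2.22e-11), 34.3-fold higher in females. Within the males Slc7a12 was the most variable of the 10 genes, with a highest to lowest ratio of 13.8. The 5 male libraries above 8 CPM were WT replicates 4 and 5 and R replicates 2, 3 and 5, and no male Q library was among them. These male values rest on 26 to 435 counts per library.

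In the apical cystine system the light chain differed and the heavy chain did not pass the test. Slc7a9 ranged from 78.95 to 139.7 CPM in males, with a median of 115.8, and from 142.6 to 211.8 CPM in females, with a median of 167.2. Its male and female libraries did not overlap, and the log2 fold change was 0.63 (SE 0.0708, adjusted p = 1.64e-08). Slc3a1 ranged from 274.4 to 577.3 CPM in males (median 517.4) and from 437.3 to 688.8 CPM in females (median 539.2). Its lowest value was in male Q replicate 4, and the ranges overlapped widely. The log2 fold change of Slc3a1 was 0.14 (95% interval -0.0032 to 0.28, adjusted p = 0.13). Over 26.5% of its exon bases Slc3a1 overlaps Prepl on the opposite strand, and the counting used no strand, so reads from that stretch cannot be assigned to one of the genes by strand.

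The basolateral genes were higher in females. Slc7a8 ranged from 92.01 to 163.1 CPM in males (median 132.5) and from 134.4 to 256.3 CPM in females (median 214.3), and its log2 fold change of 0.70 (SE 0.0822, adjusted p = 3.65e-08) was the second largest rise of the 10. The only female library of Slc7a8 within the male range was female Q replicate 5. Slc3a2 ranged from 174.6 to 286.1 CPM in males (median 214.1) and from 267.3 to 330.8 CPM in females (median 298.3), with a log2 fold change of 0.44 (SE 0.0662, adjusted p = 3.27e-06). Its highest male value was in male Q replicate 4. Slc7a7 ranged from 127.3 to 208.6 CPM in males (median 174.7) and from 143.8 to 250.8 CPM in females (median 227.5), with a log2 fold change of 0.38 (SE 0.0713, adjusted p = 7.97e-05), and again its lowest female value was that of female Q replicate 5.

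Slc6a19, Slc6a20b and Slc1a1 split by direction. Slc6a19 ranged from 165.8 to 342.9 CPM in males (median 229.0) and from 238.0 to 404.7 CPM in females (median 300.5), with a log2 fold change of 0.32 (SE 0.0926, adjusted p = 0.00621). Slc6a20b was lower in females, at 171.9 to 235.6 CPM (median 204.7) against 225.6 to 271.5 CPM in males (median 257.5), a log2 fold change of -0.30 (SE 0.0474, adjusted p = 8.02e-06). Slc1a1 was lower in females as well, at 115.7 to 153.5 CPM (median 126.3) against 132.0 to 162.7 CPM in males (median 148.7), a log2 fold change of -0.18 (SE 0.0484, adjusted p = 0.00291). All 3 ranges overlapped between the sexes. Slc6a20b shares 21.1% of its exon bases with Sacm1l and Slc1a1 31.9% with 4430402I18Rik, each on the opposite strand, and part of Slc6a20b also matches its copy Slc6a20a, so the counts of these 2 genes are uncertain in the way of Slc3a1. Slc7a7 shares 7% of its exon bases with Oxa1l, also on the opposite strand, and the other 6 genes share none.

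**Figure D2:**
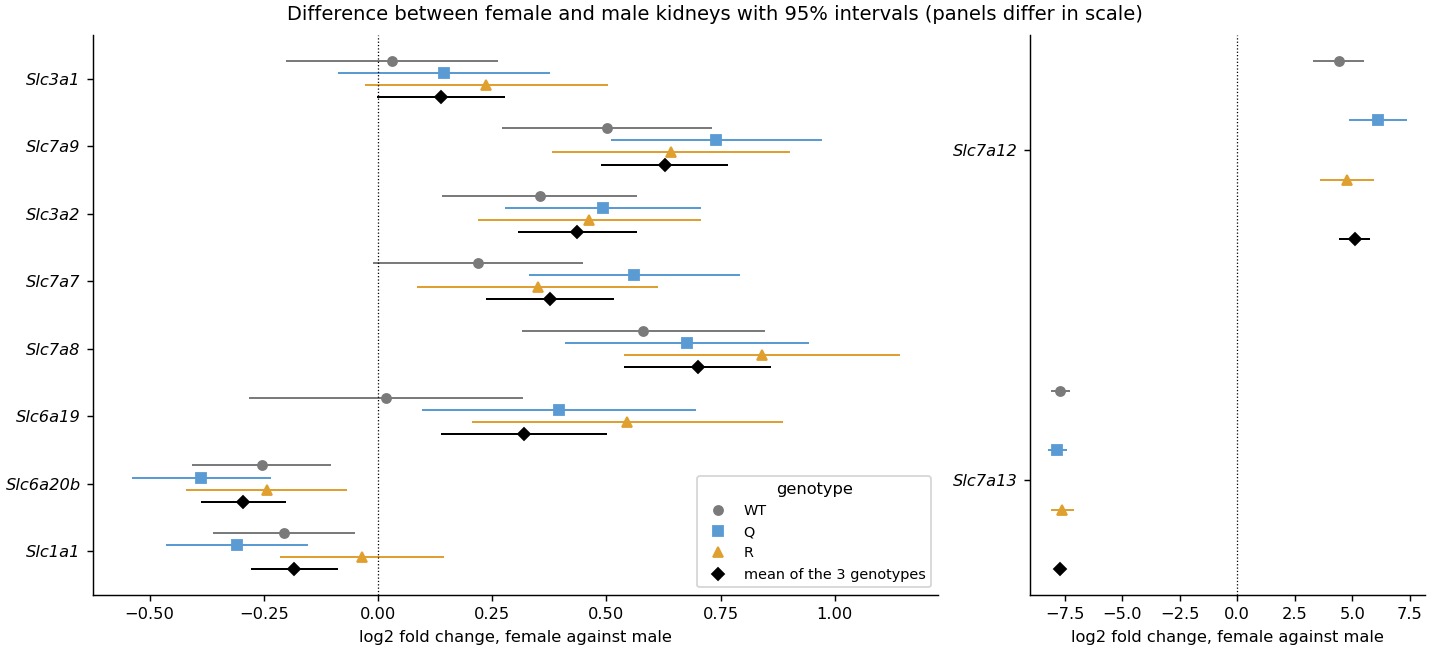
Log2 fold change of female against male kidneys (x axis) for each gene, within WT, Q and R and as the mean of the 3 genotypes. Lines are 95% intervals, and the panel for Slc7a12 and Slc7a13 has its own scale. Slc7a8 and Slc7a9 lie to the right of 0 in each genotype, and Slc6a19 is at 0.02 in WT, 0.40 in Q and 0.55 in R.

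Counting the libraries without a model, 3 of the 10 genes had male and female libraries that did not overlap. Slc7a12 and Slc7a9 had each female library above each male one, which held for 1.94% of all tested genes. Slc7a13 had each female library below each male one, which held for 3.20% of tested genes.

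Within single genotypes fewer of the genes were called. In WT, Slc7a12, Slc7a8, Slc7a9 and Slc3a2 were called higher in females and Slc7a13 and Slc6a20b lower, where 8.31% of tested genes were called higher and 8.22% lower. In Q, Slc7a12, Slc7a9, Slc7a8, Slc7a7 and Slc3a2 were called higher and Slc7a13, Slc6a20b and Slc1a1 lower, against 11.2% and 11.9% of tested genes. In R, with 3 female libraries, Slc7a12, Slc7a8, Slc7a9, Slc3a2 and Slc6a19 were called higher and Slc7a13 lower, against 7.01% and 7.07%. Slc7a12, Slc7a13, Slc7a8, Slc7a9 and Slc3a2 were therefore called in each genotype. The log2 fold change of Slc7a12 was 4.41 (SE 0.566) in WT, 6.11 (SE 0.638) in Q and 4.77 (SE 0.599) in R, and that of Slc7a13 was -7.69, -7.82 and -7.59. Slc7a7 had a log2 fold change of 0.22 (adjusted p = 0.222) in WT, 0.56 (adjusted p = 0.000643) in Q and 0.35 (adjusted p = 0.0815) in R. Slc6a19 had 0.02 (adjusted p = 0.961) in WT, 0.40 (adjusted p = 0.0593) in Q and 0.55 (adjusted p = 0.0316) in R. Slc6a20b in R (-0.24, adjusted p = 0.0692) and Slc1a1 in WT (-0.21, adjusted p = 0.0737) did not pass. The WT call of Slc3a2 was lost without any one of male WT replicates 1, 3 and 5 and female WT replicate 5 (adjusted p up to 0.0764), and the R call without female R replicate 1 or 3 (up to 0.0674). The call of Slc6a19 in R was lost without male R replicate 2 or 4 or female R replicate 1 or 2 (up to 0.22), and that of Slc6a20b in WT without female WT replicate 1 (0.0515). With no filter on low counts the calls of Slc6a20b in WT (adjusted p = 0.173), Slc1a1 in Q (0.0692) and Slc6a19 in R (0.0873) were lost. Other values passed only under a change of libraries or method. Slc1a1 in WT passed without female WT replicate 1 (adjusted p = 0.0486) or 3 (0.0398), with the DESeq2 Wald test (0.0253), with limma voom (0.0157) and with the WT groups fitted alone (0.0293). Slc6a20b in R passed without male R replicate 3 (adjusted p = 0.0476), with DESeq2 size factors in edgeR (0.0438), with the DESeq2 Wald test (0.00715) and with limma voom (0.00156). Slc7a7 passed in WT with the WT groups fitted alone (adjusted p = 0.0304), and in R without male R replicate 3 (0.0455) or with limma voom (0.00541). Slc6a19 in Q passed without male Q replicate 5, where the log2 fold change was 0.59 (adjusted p = 0.0023), and with limma voom (0.0353).

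Markers of several other nephron parts also differed between the sexes, over the mean of the 3 genotypes. For comparison, 21.3% of all tested genes were called higher in females and 18.9% lower. The 5 markers of the thick ascending limb were all called higher in females and summed to 5830 to 8078 CPM, against 3098 to 5856 CPM in males. The 5 podocyte markers (268.7 to 378.8 CPM summed in females, 201.4 to 308.0 in males), the 5 intercalated cell markers (325.4 to 475.6 and 247.3 to 321.7) and the 5 stromal markers (154.9 to 218.6 and 141.2 to 185.0) were all called higher as well. Of 5 markers each, 4 of the distal convoluted tubule, 2 of the principal cell, 2 of the endothelium, 1 immune, 1 urothelial and 0 adipocyte markers were called higher, and 0 lower. The immune and urothelial counts are near the share over all tested genes. The principal cell list held Avpr2 in addition to its 5, at a mean of 0.09 CPM in males and 0.14 CPM in females. The list of 10 proximal tubule genes summed to 15950 to 20910 CPM in females and 19410 to 23150 CPM in males, with 4 genes called higher and 3 lower, among them Gatm at 0.57 (log2 fold change), Slc34a1 at -0.51 and Slc27a2 at -0.44. Of 7 genes of its early segments 4 were called higher and 1 lower, with Gsta2 at 1.56 and Slc22a6 at -1.55. Of 10 genes of its straight segment 4 were called higher and 4 lower, with Aadat at 2.26, Slc22a30 at -4.16 and Cyp7b1 at -5.70. The part of these differences in the values of the amino acid carriers was not tested.

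Promoter sequences were available for 8 of the 10 genes, from RefSeq (GRCm38.p6), and not for Slc7a12 or Slc7a13. The 250 bases upstream of the start are shown for Slc7a8, the largest rise among those 8, for Slc6a20b, the largest fall, and for Slc6a19, which holds a searched motif. Letters in capitals mark AGAACA, the core motif of androgen and glucocorticoid receptor elements, here read on the opposite strand.
Slc7a8, chr14:54781887-54782136, minus strand: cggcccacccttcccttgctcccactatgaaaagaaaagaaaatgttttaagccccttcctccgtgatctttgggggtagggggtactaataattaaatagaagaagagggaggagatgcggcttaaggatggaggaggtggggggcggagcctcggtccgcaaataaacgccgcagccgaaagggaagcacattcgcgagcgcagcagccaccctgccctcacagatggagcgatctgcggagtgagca
Slc6a20b, chr9:123632539-123632788, minus strand: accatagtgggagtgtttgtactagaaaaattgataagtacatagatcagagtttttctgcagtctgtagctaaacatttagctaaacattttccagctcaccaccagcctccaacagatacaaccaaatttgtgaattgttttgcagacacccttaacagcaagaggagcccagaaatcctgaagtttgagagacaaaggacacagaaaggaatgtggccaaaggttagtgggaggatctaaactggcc
Slc6a19, chr13:73692637-73692886, minus strand: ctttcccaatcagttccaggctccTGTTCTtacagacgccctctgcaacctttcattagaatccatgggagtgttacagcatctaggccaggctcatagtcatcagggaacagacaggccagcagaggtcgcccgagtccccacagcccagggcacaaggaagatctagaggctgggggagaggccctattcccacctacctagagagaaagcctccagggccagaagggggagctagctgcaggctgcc
The AGAACA motif was searched on both strands of 300 bases (250 before and 50 after the start). It was present in 6 of the 13 promoters of the 8 genes, which were the 5 alternative starts of Slc7a7 and the 1 of Slc6a19. Some of the Slc7a7 promoters overlap and hold the same site, so that site was counted more than once. Counted by gene, 2 of the 8 held the motif. Among 32851 mouse promoters of the same length, counted singly, 19% held the motif. In Slc6a19 its first base lies at -226 from the start. The STAT motif TTCNNNGAA was present in 8.30% of all promoters and in 0 of the 13, and the palindromic HNF1 motif in 3 of all promoters and in 0 of the 13. A match is a run of letters and was not tied to binding by any measurement here.

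The next question was whether light chains and heavy chains differed together between the sexes. Per kilobase, the ratio of Slc7a9 to Slc3a1 was 0.189 ± 0.0329 in males (SD, n = 15) and 0.263 ± 0.0177 in females (n = 13). The female libraries, at 0.237 to 0.296, overlapped the males only between 0.237 and 0.244. The difference of the log2 ratios was 0.50, with a two-sided permutation p of 1e-05, the smallest that 100000 resamples can give (adjusted p over the 4 ratios = 2e-05). The ratio of Slc7a13 to Slc3a1 was 2.47 ± 0.403 in males and 0.0108 ± 0.00281 in females (permutation p = 1e-05, adjusted p = 2e-05). So Slc7a13 transcripts outnumbered those of Slc3a1 per kilobase in each male library (lowest ratio 1.98) and were at most 1.52% of them in any female library. The Slc3a1 level in both ratios is uncertain, since 26.5% of its exon bases overlap Prepl and the counting used no strand.

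For the basolateral heavy chain the ratios moved little. The ratio of Slc7a7 to Slc3a2 was 0.821 ± 0.137 in males and 0.774 ± 0.112 in females, a log2 difference of -0.08 (permutation p = 0.435, adjusted p = 0.435). The ratio of Slc7a8 to Slc3a2 was 0.420 ± 0.0769 in males and 0.491 ± 0.0767 in females, a log2 difference of 0.23 (permutation p = 0.0362, adjusted p = 0.0483). The lowest values of both ratios were in male Q replicate 4 among males (0.474 and 0.227) and in female Q replicate 5 among females (0.464 and 0.287). The Slc7a8 difference passed without both of these libraries (0.23, permutation adjusted p = 0.00233), while it missed the threshold in 21 of the 28 fits that leave out 1 library and within WT (0.21, exact permutation, adjusted p = 0.116).

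**Figure D3:**
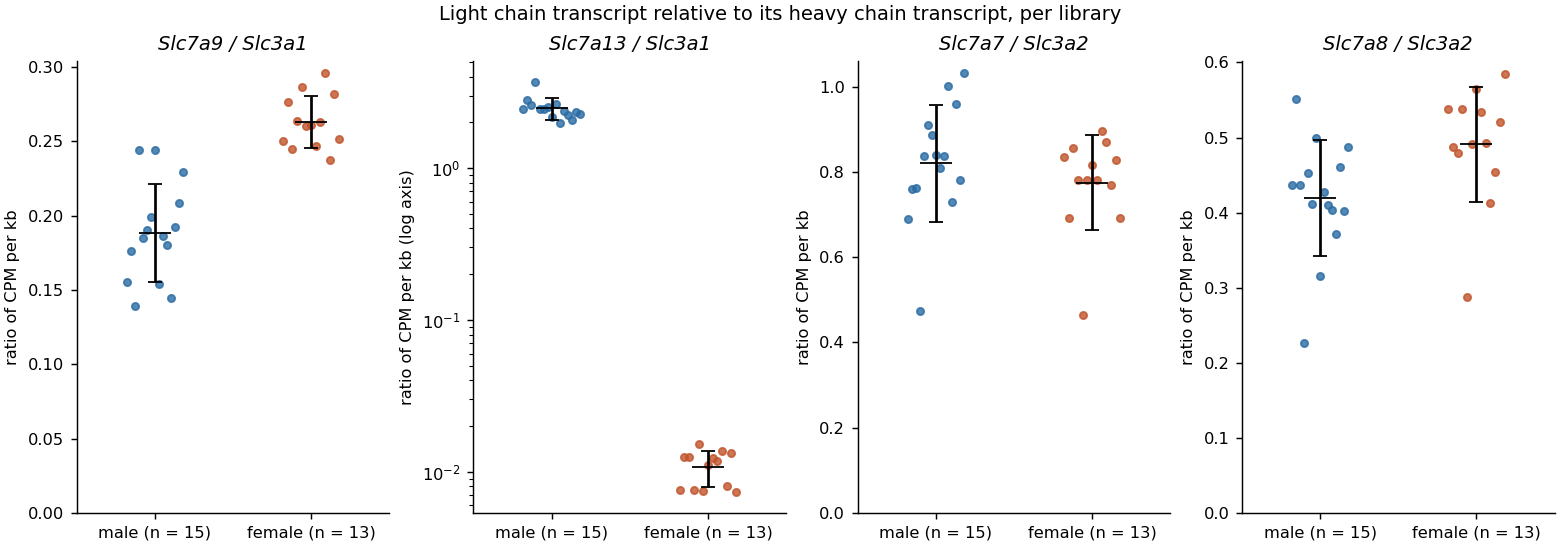
Ratio of each light chain transcript to its heavy chain transcript (CPM per kb over CPM per kb, y axis; log axis for Slc7a13) in male and female libraries. Points are libraries, and bars give the mean ± SD. Slc7a9 per Slc3a1 is 0.189 in males and 0.263 in females, and the low single points of both ratios to Slc3a2 are male Q replicate 4 and female Q replicate 5.

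Across libraries of 1 sex, partners were compared on log2 CPM, in 10 correlations with permutation p-values adjusted over the 10. Slc7a9 and Slc3a1 were correlated in the 13 female libraries (Pearson r = 0.829, permutation p = 0.00075, adjusted p = 0.0075; Spearman rho = 0.824, permutation p = 0.00096). Without the 2 libraries farthest from the Slc3a1 median, female R replicate 2 and female Q replicate 5, r was 0.631. In the 15 male libraries r was 0.551 (permutation p = 0.00503, adjusted p = 0.0251) and rho was 0.425 (permutation p = 0.117), and r fell to 0.351 without male Q replicate 4 and male WT replicate 3, so that the male relation rests on those samples. Slc7a13 and Slc3a1 had r = 0.528 in males (permutation p = 0.0234, adjusted p = 0.078; rho = 0.325, permutation p = 0.238), and r was 0.396 without the same 2 male libraries. In females r was 0.11 (permutation p = 0.728), and -0.011 without the same 2 female libraries.

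The basolateral pairs gave r values in males that depended on male Q replicate 4 and male R replicate 3, the 2 libraries farthest from the male Slc3a2 median. Slc7a7 and Slc3a2 had r = 0.284 in males (permutation p = 0.303; rho = 0.382, permutation p = 0.16), and r was 0.605 without those 2 libraries. Slc7a8 and Slc3a2 had r = -0.108 in males (permutation p = 0.702; rho = 0.154, permutation p = 0.583), and r turned to 0.562 without them. In females the r of Slc7a7 with Slc3a2 was -0.218 (permutation p = 0.481) and that of Slc7a8 with Slc3a2 was -0.0311 (permutation p = 0.922). Without female R replicate 2 and female Q replicate 2, the farthest from the female Slc3a2 median, these were -0.384 and -0.0979. Without male Q replicate 4 and female Q replicate 5, the libraries that stand apart, Slc7a7 with Slc3a2 was 0.668 in males (adjusted permutation p = 0.0455) and 0.326 in females, and Slc7a8 with Slc3a2 was 0.351 and 0.521, so no direction is given for either pair in females or for Slc7a8 with Slc3a2 in males. Slc6a19 and Cltrn had r = 0.361 in males (permutation p = 0.186) and -0.343 in females (permutation p = 0.262), and 0.284 and -0.342 without the 2 libraries farthest from the Cltrn median in each sex.

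The genes whose log2 CPM was most like that of Slc7a12 over the 28 libraries were Hao2 (Pearson r = 0.974), Prlr, the prolactin receptor (0.973), and Kynu (0.971). All 3 were higher in females, with log2 fold changes of 2.09, 3.42 and 3.24. On deviations from the group means, which leave out sex and genotype, the 3 most alike were Prlr (0.802), Aqp4 (0.801) and Hao2 (0.759). The genes most like Slc7a13 were Cyp2j13 (r = 0.997), Slco1a1 (0.996) and Cyp7b1 (0.994), with log2 fold changes of -7.69, -8.25 and -5.70 in females. On deviations from the group means they were Slco1a1 (0.713), Pzp (0.639) and Nat8f7 (0.612). These r describe 28 libraries that share sex, scaling and tissue makeup, and they carry no test.

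Among 50 other genes, taken from families of amino acid and peptide transporters and their partners, 39 were tested. Membership was by family, and the substrate of each gene was not considered. Over the mean of the 3 genotypes 16 of them were higher and 7 lower in females, with a median log2 fold change of 0.22. Of all tested genes, 21.3% were called higher and 18.9% lower in that contrast. These lists too were chosen with earlier results of these data known, and the counts carry no test. Of the other Slc6 genes, Slc6a18, an apical carrier of neutral amino acids related to Slc6a19, rose from 602 ± 55.5 to 956 ± 147 CPM (log2 fold change 0.69, adjusted p = 2.25e-10), and Slc6a17 rose by 0.59. Slc6a9, a glycine carrier, fell by 1.34 on the log2 scale, from 15.1 ± 3.83 to 5.85 ± 1.70 CPM. Cltrn, the partner of Slc6a19, fell by 0.29, from 1457 ± 139 to 1197 ± 150 CPM (adjusted p = 0.000321), while Slc6a19 itself rose. Among the other Slc1 genes, Slc1a5 (0.47) and Slc1a3 (0.39) rose and Slc1a4 (-0.70) and Slc1a2 (-0.58) fell. Among the other Slc7 genes, Slc7a2, a cationic amino acid carrier (0.71), Slc7a3 (1.91, with males at 0.16 ± 0.109 CPM), Slc7a5, another partner of Slc3a2 (0.70), and Slc7a6 (0.36) rose. Slc38a1 (0.53) and Slc38a2 (0.32) rose, and Slc38a9 (-0.14) fell, while Slc38a6 was at -0.17 (adjusted p = 0.0736). Slc16a10, a basolateral carrier of aromatic amino acids, rose by 0.38, from 50.7 ± 7.54 to 65.3 ± 5.83 CPM, and Slc43a3 (0.19), Slc43a1 (0.28) and Slc43a2 (0.06) did not pass. Of the proton-coupled carriers, Slc36a1 fell by 0.63, from 94.7 ± 17.5 to 60.5 ± 5.64 CPM. The peptide carriers Slc15a2 (0.53) and Slc15a1 (0.85) and the amino acid carrier Slc36a4 (0.47) rose. Slc15a1 was low in both sexes, at 0.364 ± 0.181 CPM in males and 0.655 ± 0.182 CPM in females.

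**Figure D4:**
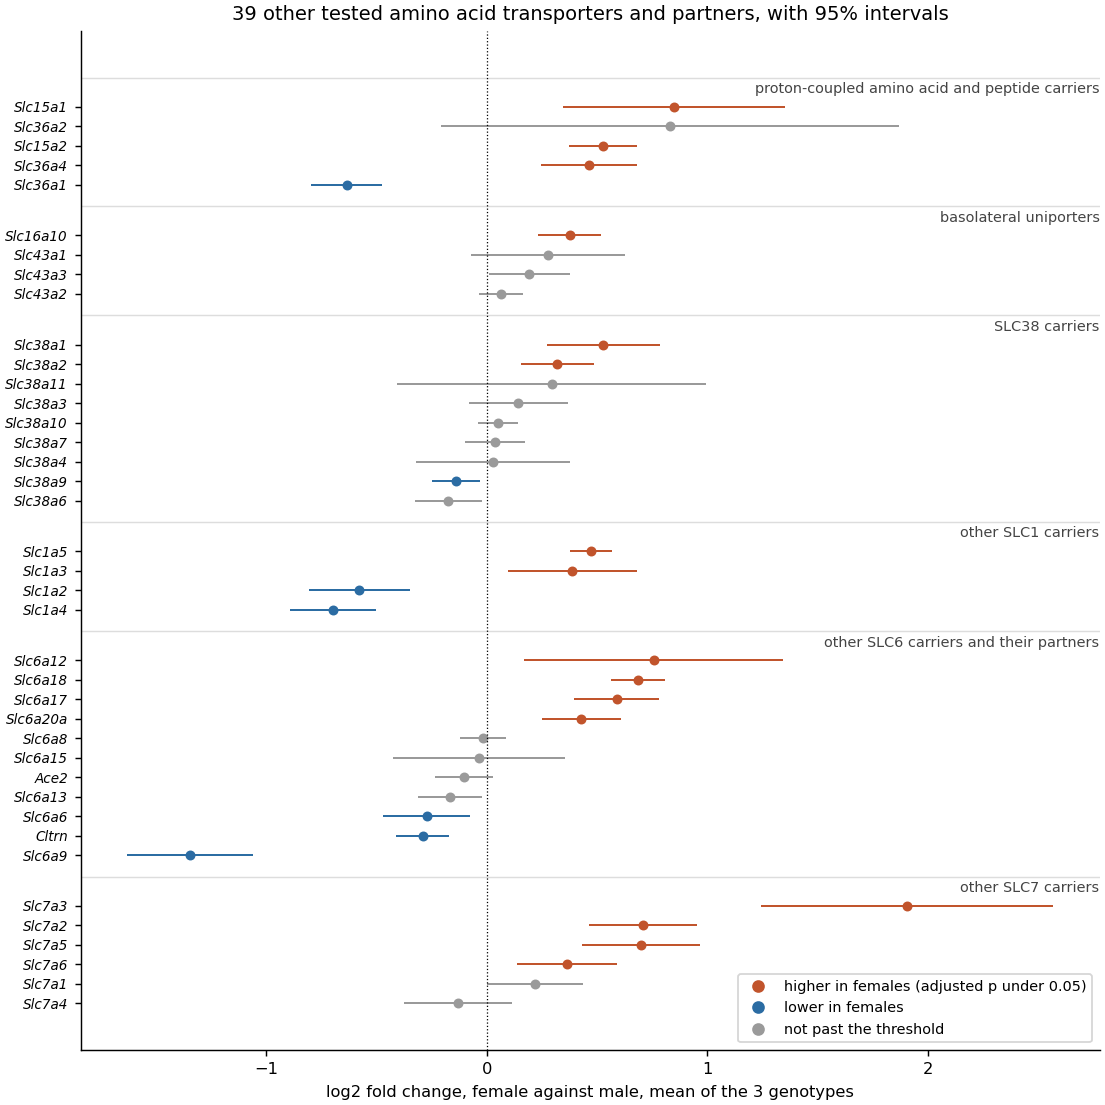
Log2 fold change of female against male kidneys, mean of the 3 genotypes (x axis), for the 39 tested genes among other members of amino acid and peptide transporter families and partners, grouped by family (y axis). Lines are 95% intervals; orange marks genes called higher in females, blue genes called lower and grey genes past no threshold. 16 genes are orange and 7 blue, and Slc6a9 is the farthest to the left at -1.34.

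The study's own question concerns the aquaporin-3 forms, and none of the 10 genes was called in any of the 9 genotype contrasts. The contrasts were Q against WT, R against WT and Q against R, in males, in females and over both sexes, and 0% of all tested genes was called in each by edgeR. DESeq2 called 3 genes in Q against WT in males, and 1 each in Q against R in males, Q against WT in females and Q against WT over both sexes, and limma called 2 in Q against R in males. None of these was 1 of the 10. At an unadjusted p under 0.05, 5 of the 10 were below WT in male Q kidneys (Slc7a7, Slc7a9, Slc7a12, Slc6a19 and Slc3a1), where 5.10% of all tested genes had such a p in either direction. Over both sexes the same 5 had such a p, against 4.72% of tested genes. Without male Q replicate 4 and female Q replicate 5 these counts were 4 in males and 3 over both sexes. The 2 contrasts share the male libraries and are not independent. The 10 genes were chosen with earlier results of these data known, so these counts carry no test.

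Slc7a7 had the smallest p of the 10 in male Q kidneys. It read 202.7, 179.6, 198.6, 184.9 and 199.2 CPM in male WT and 138.9, 148.9, 135.5, 127.3 and 161.2 CPM in male Q. The groups did not overlap, with each Q library below each WT library. That held for 0.330% of all tested genes, and 0.74% were separated in either direction. Male R libraries spanned both, at 174.7, 161.0, 208.6, 132.7 and 192.1 CPM. Against WT, the log2 fold change of male Q was -0.44 (95% interval -0.67 to -0.21, unadjusted p = 0.000816, adjusted p = 0.795). In females it was -0.10 (95% interval -0.33 to 0.13), with 250.8, 237.2, 204.5, 229.9 and 201.2 CPM in WT and 245.5, 215.1, 240.0, 206.0 and 143.8 CPM in Q.

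The other 4 genes overlapped between male Q and male WT. Slc7a9 read 115.8, 84.3, 131.0, 132.2 and 139.7 CPM in male WT and 85.24, 98.56, 83.48, 78.95 and 114.8 CPM in male Q (log2 fold change -0.39, adjusted p = 0.795). Slc6a19 read 324.0, 229.0, 342.9, 288.4 and 225.6 CPM in male WT and 167.3, 208.0, 179.0, 165.8 and 308.5 CPM in male Q (-0.46, adjusted p = 0.917). In both, 1 library stood on the other group's side, which was male WT replicate 2 for Slc7a9 and male Q replicate 5 for Slc6a19. For Slc7a12 the log2 fold change was -1.91 (SE 0.61, adjusted p = 0.855), with means of 9.76 ± 8.67 CPM in WT and 2.58 ± 1.30 CPM in Q (SD, n = 5 each, edgeR). The highest male WT values were those of replicates 4 and 5, and without replicate 5 the log2 fold change was -1.37. For Slc3a1 it was -0.25 (adjusted p = 0.917), or -0.12 without male Q replicate 4, which read 274.4 CPM against 465.8 to 526.6 CPM in the other male Q libraries. The remaining genes had log2 fold changes of -0.07 (Slc3a2), -0.12 (Slc7a8), 0.01 (Slc7a13), 0.01 (Slc6a20b) and 0.09 (Slc1a1) in male Q. Proximal tubule markers summed to 21180 to 23150 CPM in male WT and 19410 to 21810 CPM in male Q, and those of the thick ascending limb to 5000 to 5856 and 3098 to 5394 CPM, and their part in these values was not tested.

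**Figure D5:**
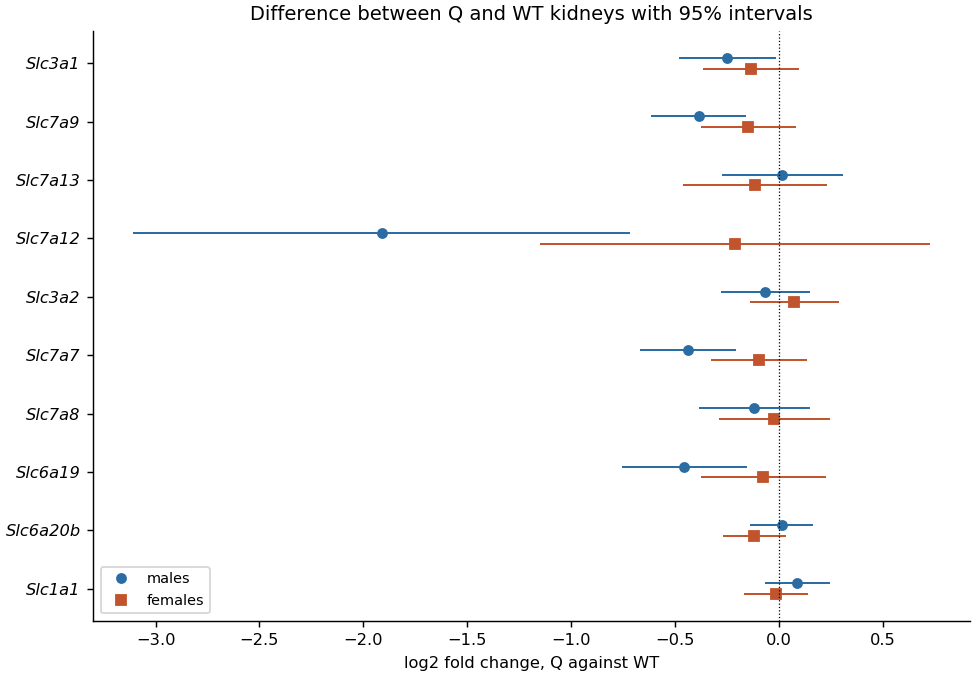
Log2 fold change of Q against WT kidneys (x axis) for the 10 genes, in males (blue circles) and females (orange squares), with 95% intervals as lines. Slc7a12 is at -1.91 in males and -0.21 in females. In males 5 genes (Slc7a7, Slc7a9, Slc7a12, Slc6a19 and Slc3a1) were below WT at an unadjusted edgeR p under 0.05. None of them passed after adjustment over all genes.

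The other genotype contrasts called none of the 10 genes. At an unadjusted edgeR p under 0.05, 3 of the 10 were lower in Q than in R in males, where 721 of 17573 tested genes had such a p. In females 1 was lower (532 genes), and over both sexes 4 were (691 genes). In Q against WT in females and in R against WT, 0 of the 10 had such a p. The Q against R contrasts share the Q libraries with Q against WT and are not independent of it. In R against WT the log2 fold changes of the 10 ran from -0.25 (Slc6a19) to 0.02 (Slc6a20b) in males and from -0.02 to 0.28 in females. In Q against WT in females they ran from -0.21 (Slc7a12) to 0.07 (Slc3a2), and in Q against R in females from -0.48 (Slc7a12) to 0.06 (Slc3a2). Slc3a1 and Slc6a19 had each female R library above each female Q library, where 2.82% of tested genes were separated in either direction. Slc7a12 was at -1.82 in Q against R in males (SE 0.608, adjusted p = 0.9999) and at -0.09 in R against WT in males. Over both sexes Q against WT gave -1.06 for Slc7a12, -0.27 for Slc7a7, -0.27 for Slc7a9, -0.27 for Slc6a19 and -0.19 for Slc3a1, with an adjusted p of 0.92 for each.

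The interactions of sex and genotype asked whether a genotype difference was unlike in females and males, and 0% of all tested genes was called in either. For Q against WT the largest interaction of the 10 was that of Slc7a12, at 1.70 (SE 0.777, unadjusted p = 0.0393, adjusted p = 0.999). That of Slc7a7 was 0.34 (SE 0.166, unadjusted p = 0.0485) and that of Slc6a19 was 0.38 (SE 0.216, unadjusted p = 0.089), with the same adjusted p. For R against WT the interactions of the 10 ran from 0.01 (Slc6a20b) to 0.53 (Slc6a19, unadjusted p = 0.0301, adjusted p = 0.992). At an unadjusted p under 0.05 there were 547 genes in the first interaction and 495 in the second.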

How the data were processed

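The deposited values were raw counts of fragments per gene over exons from polyadenylated RNA of 28 mouse kidney libraries, made by the authors with featureCounts of Subread 2.0.1 on the Ensembl 107 annotation of GRCm39 without a strand option, per the file headers. Trim Galore 0.6.7, DESeq2 1.38.3 and SAMtools 1.6 are in the submitters' processing notes as well; the aligner is not given in the sources used here. As deposited, values were whole numbers with a different total in each library, so no scaling to a common depth had been applied.

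Groups were taken from the sample titles. Counts were tested in R 4.3.3 with edgeR 4.0.16: filterByExpr left 17573 genes holding 99.91% of counts, libraries were scaled by TMM, and 1 model with 6 group means over 28 libraries (22 residual degrees of freedom, robust quasi-likelihood) gave 15 contrasts, 4 for sex, 9 for genotype and 2 interactions. SE is the absolute log2 fold change over the square root of F, so intervals at 95% are approximate. Log2 CPM used a prior count of 2. Precision rests on 26 to 25853 counts per gene and library. Exon lengths came from GENCODE mouse release 21 on GRCm38, matched by identifier, since no annotation of the counts' build was used. The procedure was tested on simulated data.

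The 10 genes and the lists of other transporters and markers were chosen with earlier results of these data known. All 10 are named; of each list of other transporters up to 4 genes with the smallest p in the mean sex contrast are named, and of each proximal tubule list up to 3. Likeness is the highest Pearson r with Slc7a12 and Slc7a13, the largest rise and fall. Alternatives were DESeq2 size factors, the DESeq2 1.42.0 Wald test, limma 3.58.1 voom with quality weights, no filter, a replicate block, the contrast's groups alone, leaving out both libraries that stand apart, and leaving out each library.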

Additional observations from a re-analysis of the deposited data

Results flagged for a closer look

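In the 50 sets of 5 libraries formed by the 10 genes and the 5 groups of that size, 4 held a library far from the others by Dixon's gap test at its critical value of 0.71, where chance gives about 1 in 20. Slc3a1 read 274.4 CPM in male Q replicate 4, with the nearest library of the group at 465.8 CPM. In the same library Slc3a2 read 286.1 CPM, with the nearest at 214.1 CPM. Slc7a8 read 123.4 CPM in male WT replicate 1, with the nearest at 138.0 CPM. Slc1a1 read 133.0 CPM in male WT replicate 2, with the nearest at 146.2 CPM.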

How the results depend on the processing

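The mean sex contrast called the same 9 genes under each of the 6 alternatives and with each library left out, and the 11 genotype and interaction contrasts called 0 of the 10 genes under each alternative run. Of 250 single values in the 4 sex contrasts under the alternatives that keep or remove several libraries or change the method, 237 kept direction and side of the threshold, 4 lost the call and 9 gained one; the cause was not tested. The numbers of called genes stayed within 1.5 times. Leaving out 1 library left between 5 and 7 genes called in WT, between 8 and 9 in Q, and between 4 and 8 in R. The contrast's groups alone are not an alternative for the mean sex contrast, which uses all 6. Same-numbered libraries did not deviate together (median r = 0.00596, over 0.1 in 5 of 65 pairs), and with a replicate block 9 genes were called in the mean sex contrast and Slc6a19 in R was at 0.56 (adjusted p = 0.0573).

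Direction changed with single libraries left out for values near 0, which ranged from -0.0154 to 0.0598 (Slc3a1 in WT), -0.0762 to 0.0976 (Slc6a19 in WT) and -0.115 to 0.0674 (Slc1a1 in R) for females against males. The ranges were -0.0174 to 0.0699 (Slc7a13), -0.0129 to 0.0511 (Slc6a20b) for Q against WT in males, -0.664 to 0.445 (Slc7a12) for R against WT in males, and -0.130 to 0.0141 (Slc6a19) for Q against WT in females. The range of Slc7a12 was wide, so its value in that contrast depended strongly on single libraries. The log2 ratio of Slc7a8 to Slc3a2 was 0.172 to 0.296 with 1 library left out and 0.209 within WT, where it missed the threshold. Among correlations, deviations from group means gave 0.344 for Slc7a9 with Slc3a1 in males, which no longer passed, 0.634 for Slc7a13 with Slc3a1 in males, which then passed, and changed signs in females, to -0.0461 for Slc7a13 with Slc3a1 and 0.0261 for Slc7a8 with Slc3a2. Without both libraries that stand apart, Slc7a9 with Slc3a1 in males was 0.431 and no longer passed, Slc7a7 with Slc3a2 was 0.668 in males, then passing, and 0.326 in females, of the opposite sign. Slc7a8 with Slc3a2 turned to 0.351 in males and 0.521 in females. The cause of these shifts was not tested. Depth limits mainly Slc7a12 in males and Slc7a13 in females, at 26 to 435 and 74 to 148 counts per library.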
